A study of Rattus norvegicus with 49 samples.

Results

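Genes of heme synthesis and of the red cell were followed in rat liver after furan, 8 in number: Alas1, Alad, Urod, Cpox, Ppox, Fech, Alas2 and Slc4a1. They were chosen by name, by matching the RefSeq accession of each probe to the gene symbol, and are 8 of 15154 named genes on the array. Each was measured by 1 probe, printed as 2 spots, and all 8 probes were among the 17698 of 30367 that passed the filter on dim signals. Liver RNA came from inbred F344 rats of both sexes, aged 7 to 8 weeks when dosing began. Furan, a small volatile ring ether that forms in heated food, was given in corn oil by gavage on 5 days a week for 90 days. The doses were 0.03, 0.12, 0.5 and 2 mg/kg, and control rats received the oil alone. All 10 groups of sex and dose held 5 rats, except that 4 males received 0.03 mg/kg, and each array measured 1 rat. Every array compared liver RNA, labelled with Cy5, with a universal rat reference RNA, labelled with Cy3, so each value below is a log2 ratio of liver over reference unless a log2 difference is named.

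Heme is built in a fixed chain of steps that begins and ends in the mitochondrion. The first step, which joins glycine to succinyl-CoA, sets the rate, and the genome holds a gene for it in most tissues, Alas1, and another for developing red cells, Alas2. In the hepatocyte heme goes mainly into cytochrome P450 enzymes and represses Alas1, whereas in the erythroid cell it goes into hemoglobin and iron governs Alas2. Alad, Urod, Cpox, Ppox and Fech code for later enzymes of the chain, used in both settings, and Fech inserts the iron. Slc4a1 codes for band 3, the chloride and bicarbonate exchanger that also anchors the membrane skeleton of the red cell.

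The sequence before the start of Alas1 and that of Alas2 are shown because the genes serve different cells. Both were taken from the RefSeq promoter windows of the GRCr8 build, which span 250 bases before to 50 bases after an annotated start and were found for 6 of the 8 genes, not for Cpox and Slc4a1. Capitals mark the letters GCATGCGC or GCGTGCGC, of the type bound by the factor NRF1, and AGATAA, of the type bound by GATA factors, each searched on both strands.
Alas1, chr8:115768623-115768702, minus strand, positions -60 to 20: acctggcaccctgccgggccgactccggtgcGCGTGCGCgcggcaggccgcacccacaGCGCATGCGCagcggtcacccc
Alas2, chrX:22895285-22895344, plus strand, positions -165 to -106: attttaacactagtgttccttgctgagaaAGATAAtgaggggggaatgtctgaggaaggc
Alas1 held GCGTGCGC from position -29, and GCATGCGC on both strands in matches that overlap at the start. GCATGCGC occurred in 2.47% and GCGTGCGC in 2.67% of all 33469 windows, and Alas1 was the only 1 of the 6 genes to hold either. AGATAA occurred in 11.6% of windows, and Alas2 held it at -136 and Fech, on the other strand, at -135. The Alas2 window begins inside the annotated span of the gene, so it need not be the start used in red cells.

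The arrays differed in quality by slide. On 48 arrays hepatocyte markers were well above background, except Hnf4a on 1 of them, and the log2 ratio of Alb, albumin, ranged from 7.10 to 9.49. The remaining array, below called the dim array, was that of male 26 in the 0.03 mg/kg group, with 5.06% of liver channel spots well above background, on which Cpox, Ppox, Fech, Alas2 and Slc4a1 were not above it. The labels call 1 male array eliminated after quality control and do not name it. The dim array is among the 49 arrays at hand, and its group is the only 1 with 4 arrays in place of 5. The eliminated array need therefore not be this one. Slides 5 and 6, with medians of 43.2% and 45.0% of spots well above background, held 10 treated arrays and 0 controls. Alas2 and Slc4a1 were low on them: Alas2 had a median of 1.49 on those 10 arrays and 2.92 on the 28 other treated arrays, and Slc4a1 of 1.20 and 2.43. For Alas1 the medians were 4.19 and 4.15, and for the mean over 17 red cell genes described below they were 1.07 and 1.07. The differences below are therefore from a fit in which slide was a block, and values without the block stand beside those it decides.

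**Figure D1:**
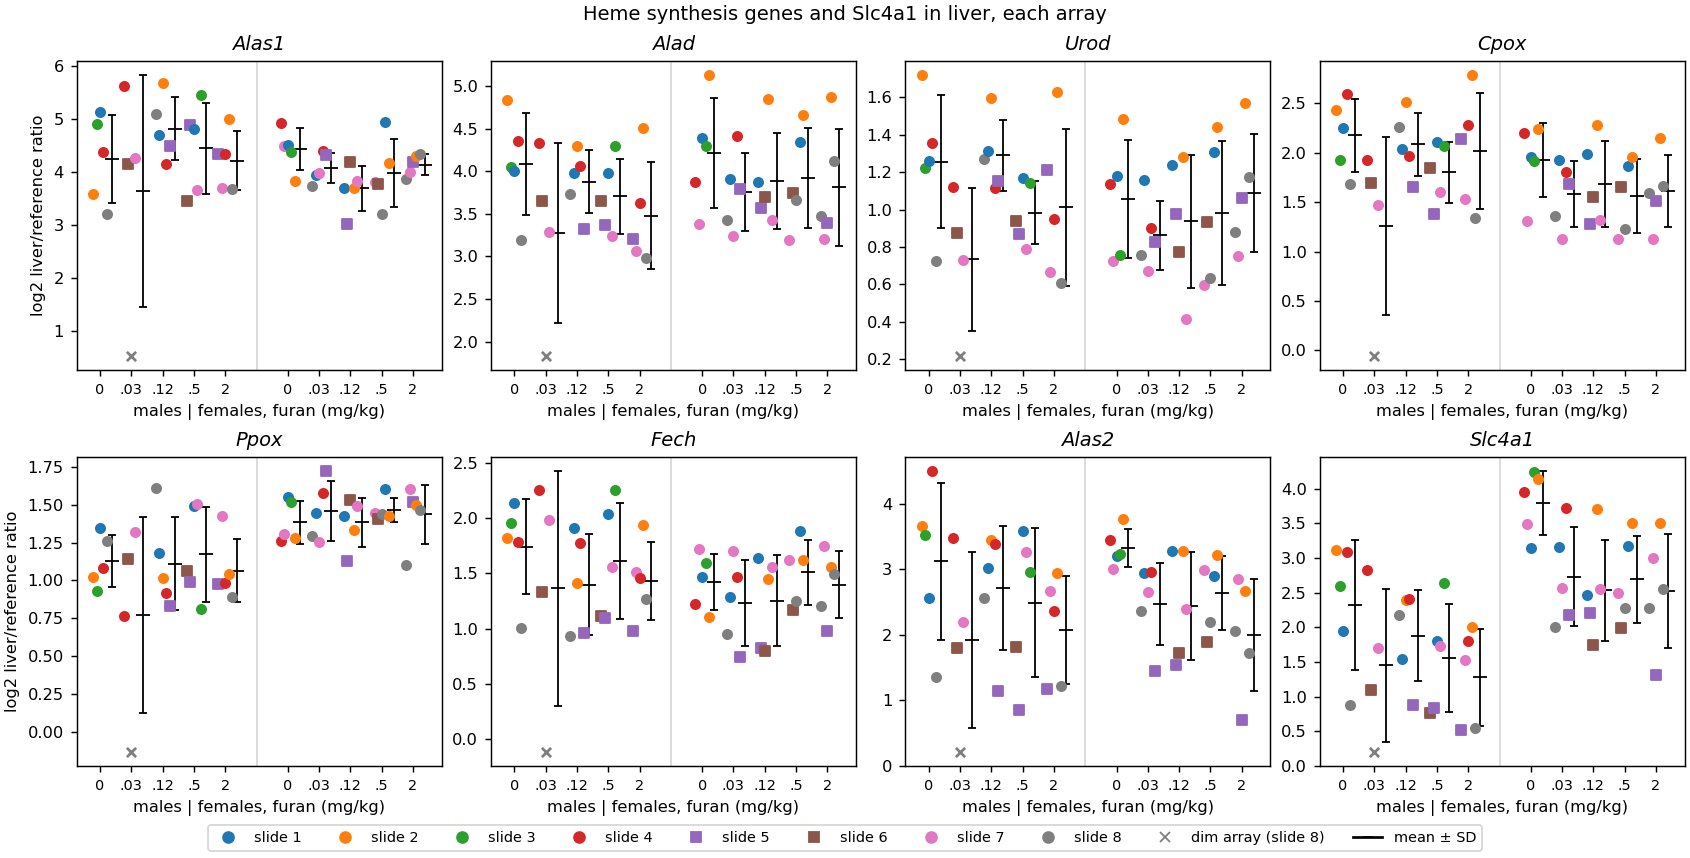
Log2 liver/reference ratio of the 8 genes on each array (vertical axis, a separate scale for each gene) by furan dose (horizontal axis) in males, at the left of each panel, and in females. Colours mark the slide, squares the slides without controls, the cross the dim array, and the bar the mean ± SD of all arrays of a group. Alas2 and Slc4a1 are low on slides 5 and 6, and Slc4a1 lies higher in females than in males.

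The main question was whether furan changed these genes in either sex. At 2 mg/kg, 1 of the 8 was called in males, Slc4a1, and 0 in females, where a call needed an adjusted p of at most 0.05 from limma and a fold change of at least 1.5. Over all probes tested, 3.8% were called in males and 0.655% in females, or 2.21% and 0.667% without the slide block and 5.06% and 1.4% without the dim array. In males 6 of the 8 differences were below 0, with a median of -0.11, beside -0.02 for all probes. In females 6 of the 8 were above 0, with a median of 0.08, beside 0.01 for all probes. Without the slide block all 8 were below 0 in males, with a median of -0.28, and 6 of the 8 were below 0 in females, with a median of -0.30. At an unadjusted p under 0.05 the count was 2 in each sex, against 27.4% of all probes in males and 17.6% in females. None of the 8 was called at 0.03, 0.12 or 0.5 mg/kg in either sex, where 0%, 0.17% and 0.141% of all probes were called in males and 0%, 0.00565% and 0.017% in females. At those doses the males showed 4, 0 and 0 of the 8 at an unadjusted p under 0.05, beside 24.4%, 4.83% and 8.3% of all probes, and the females 0, 1 and 2, beside 4.42%, 6.06% and 11.4%. The 4 in males at 0.03 mg/kg, Urod, Cpox, Ppox and Alas2, were measured with the dim array in the group, and without it the largest difference among them was -0.35.

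**Figure D2:**
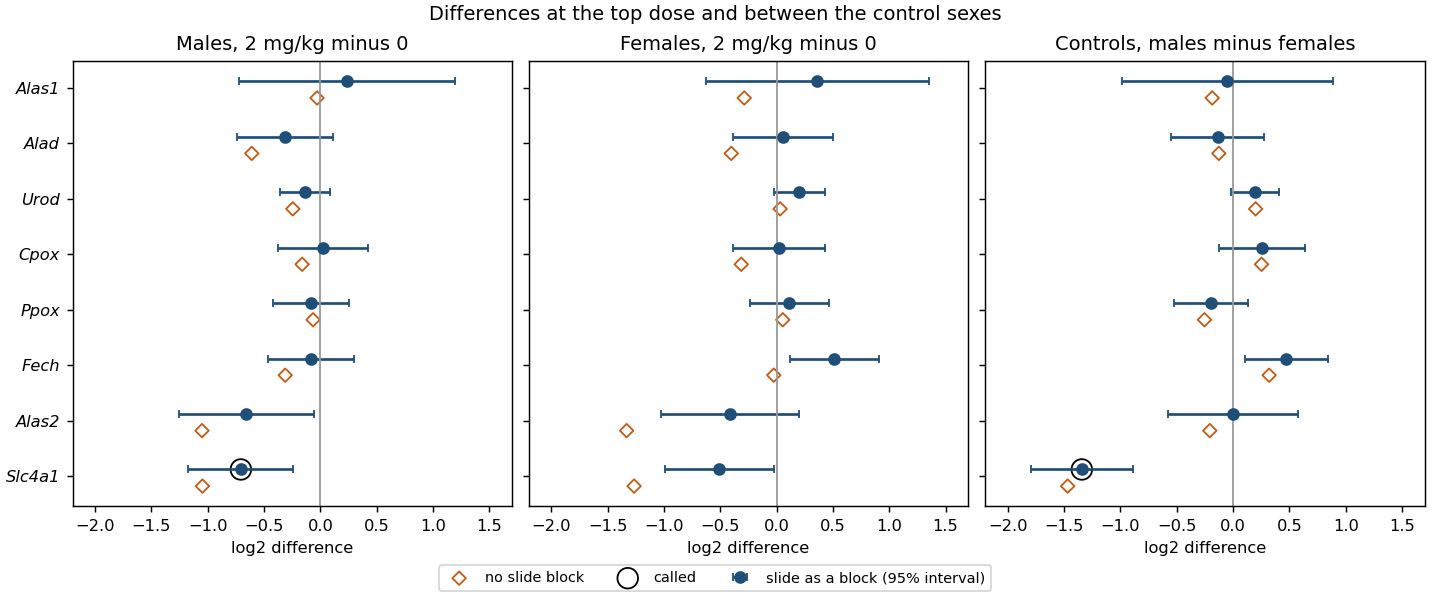
Log2 differences of the 8 genes (vertical axis) in males at 2 mg/kg, in females at 2 mg/kg and between male and female controls, on the horizontal axis. Filled points with 95% intervals are from the fit with slide as a block, open diamonds from the fit without it, and rings mark calls. Slc4a1 is ringed in males and between the sexes, and the diamonds of Alas2 and Slc4a1 lie well to the left of the points in females.

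Slc4a1 fell in males at 2 mg/kg. The 5 control males read 3.11, 2.59, 1.94, 3.09 and 0.88, and the 5 males at 2 mg/kg read 0.51, 1.53, 1.80, 2.00 and 0.55. The groups overlapped, since control male 6, on slide 8, was lower than 3 of the treated males, and 2 treated males lay below all controls. The liver signal was well above background on 4 of the 5 treated arrays, the exception being animal 81 on slide 5. The log2 difference was -0.71 ± 0.23 (SE), a level 1.63-fold lower, with a limma adjusted p of 0.0347. It was below 0 on each slide that held both groups, at -1.12 on slide 2, -1.29 on slide 4 and -0.34 on slide 8, with 1 array a side. The call did not hold without the slide block, where the difference was larger, -1.05, but so was its spread (adjusted p = 0.207). It was also lost in 6 of the 10 fits that left out 1 array of these groups, without control male 2, 4 or 5 or without treated male 84, 86 or 87.

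In females Slc4a1 was not called at 2 mg/kg. The controls read 3.95, 3.49, 3.15, 4.24 and 4.15 and the treated females 2.28, 3.00, 1.31, 3.50 and 2.55. All but 1 of the 5 treated females lay below all controls, but 3 of them were on slides 5 and 8, which held no female control. With slide as a block the log2 difference was -0.51 ± 0.24 (SE), with an adjusted p of 0.256 from limma. On slides 2 and 7, which held both groups, it was -0.65 and -0.49. Leaving out female 85, on slide 5, moved the fitted value to -0.33. The test of the difference in furan effect between the sexes gave -0.20, with a 95% interval from -0.84 to 0.45 and an adjusted p of 0.801, so no difference was found. Its direction was not settled, since it ranged from -1.03 to 0.65 over 12 other settings and from -0.40 to -0.084 when single arrays were left out.

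At the lower doses the females also read below their controls. Their 0.03 mg/kg group ranged from 2.00 to 3.73 around a median of 2.57, the 0.12 mg/kg group from 1.75 to 3.71 around 2.47, and the 0.5 mg/kg group from 2.00 to 3.51 around 2.50. With the 2 mg/kg group, whose median was 2.55, the ranges of all treated female groups overlapped and no step with dose is seen in the medians. The log2 differences from the controls were -0.44, -0.59 and -0.48, none of them called, the lowest adjusted p from limma being 0.418. In males the differences at 0.03, 0.12 and 0.5 mg/kg were -0.35, -0.11 and -0.23, not called either, and the first was -0.014 without the dim array. An effect of any dose on Slc4a1 was not found by the F test of limma, with an adjusted p of 0.134 in males and 0.557 in females, while 12.1% and 0.802% of all probes passed. Without the dim array it passed in males, with an adjusted p of 0.0477, as did 18.2% of all probes.

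Alas2, the erythroid enzyme, read below the controls at 2 mg/kg in both sexes but was called in neither. Control males read 3.66, 3.53, 2.56, 4.50 and 1.36, and males at 2 mg/kg 1.17, 2.67, 2.36, 2.94 and 1.22. Control females read 3.44, 3.01, 3.20, 3.23 and 3.76, and females at 2 mg/kg 2.06, 2.85, 0.70, 2.66 and 1.73. The male groups overlapped, as those of all 8 genes did in males, where 4.26% of all probes showed no overlap, while all 5 treated females lay below all 5 female controls, and 4% of all probes showed no overlap of these groups, in either direction. All 5 females at 0.03 mg/kg, from 1.44 to 2.96, also lay below them, where 0.373% of all probes showed no overlap, but with slide as a block the log2 difference there was -0.19. With slide as a block the log2 difference was -0.66 ± 0.29 (SE) in males and -0.41 ± 0.30 in females, with limma adjusted p values of 0.138 and 0.508. Without the block it was -1.05 and -1.33, with 0.285 and 0.160. On slides that held both groups the values were -0.72, -2.14 and -0.14 in males and -1.10 and -0.16 in females. The 95% intervals, -1.25 to -0.06 and -1.03 to 0.20, hold falls of more than 1.5-fold in both sexes. Leaving out control male 5 moved the male value to -0.36, and leaving out female 90 at 2 mg/kg moved the female value to -0.27.

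**Figure D3:**
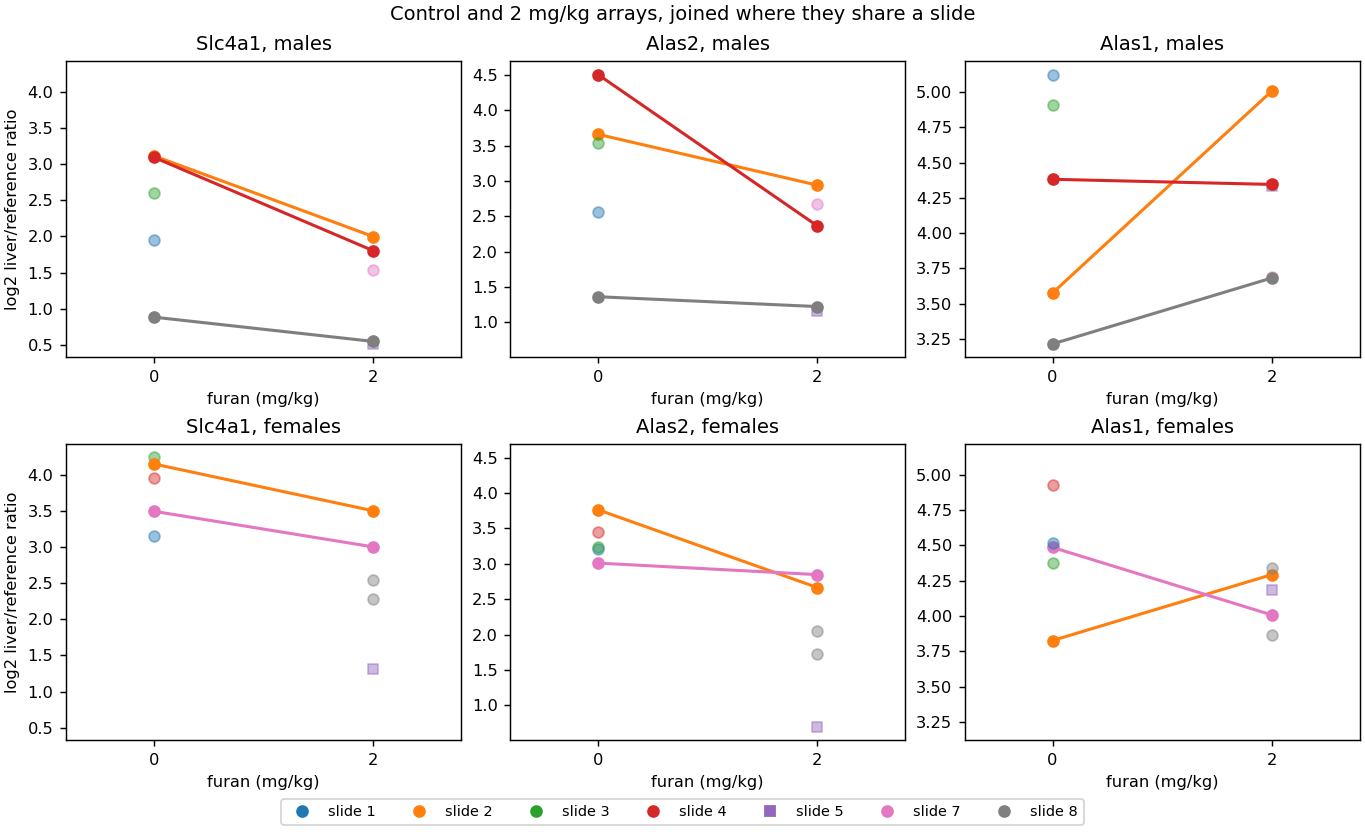
Log2 liver/reference ratio of Slc4a1, Alas2 and Alas1 (vertical axis) in controls and at 2 mg/kg (horizontal axis), males above and females below. Lines join arrays of the same slide and pale points are arrays whose slide lacks the other group. Slc4a1 and Alas2 are lower at 2 mg/kg on every joined slide, and Alas1 is higher on some slides and lower on others.

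Alas1, the liver's own rate-setting enzyme, was not called at any dose. Control males read 3.58, 4.91, 5.12, 4.38 and 3.21, and males at 2 mg/kg 4.33, 3.69, 4.35, 5.01 and 3.68. Control females read 4.93, 4.49, 4.51, 4.37 and 3.83, and females at 2 mg/kg 3.87, 4.01, 4.18, 4.29 and 4.34. The treated values lay within the range of the controls in both sexes. The log2 difference was 0.24 ± 0.47 (SE) in males and 0.36 ± 0.49 in females, with adjusted p values from limma of 0.782 and 0.768. The spread of Alas1 around group and slide means, an SD of 0.53, was the widest of the 8 genes, of which the narrowest was Urod at 0.14. The 95% intervals, -0.73 to 1.20 and -0.63 to 1.35, therefore hold a 1.5-fold change either way. Within slides Alas1 differed by 1.43, -0.04 and 0.47 in males and by 0.47 and -0.48 in females. With all arrays the largest difference at any dose was 0.74 in males at 0.12 mg/kg, whose values ranged from 4.14 to 5.67.

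The later enzymes of the chain were steadier. Alad, which joins aminolevulinate units into the first pyrrole, differed by -0.31 in males and 0.06 in females at 2 mg/kg. Urod and Cpox, which trim the side chains of the ring, differed by -0.14 and 0.02 in males and by 0.20 and 0.02 in females. Ppox, which oxidises the ring to protoporphyrin, differed by -0.08 and 0.11. The limma adjusted p values of these 4 genes lay between 0.354 and 0.95 in males and between 0.355 and 0.979 in females, and no interval reached beyond a log2 difference of 0.74 in size.

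Fech, which inserts iron as the last step, had the lowest adjusted p of the later enzymes at 2 mg/kg, in females, without a call. Control females read 1.23, 1.72, 1.46, 1.59 and 1.11, and females at 2 mg/kg 1.20, 1.75, 0.98, 1.56 and 1.49, so the raw values overlapped. Fech was low on slides 5 and 6, with a median of 0.98 on their 10 treated arrays against 1.56 on the 28 others. The fit with slide as a block gave a log2 difference of 0.51 ± 0.20 (SE), with an adjusted p of 0.153. Without the block the difference was -0.03, and without the dim array it was 0.42 with an adjusted p of 0.0373, under the 1.5-fold limit. On slides 2 and 7 it was 0.45 and 0.03. In males the difference was -0.08, and the test between the sexes gave -0.59 with an adjusted p of 0.283.

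A further comparison asked how control males and females differed. Slc4a1 was the only 1 of the 8 genes called, where 5.5% of all probes were called, or 3.09% without the slide block and 6.41% without the dim array. The 5 control females, from 3.15 to 4.24, all lay above the 5 control males, from 0.88 to 3.11, and 6.3% of all probes showed no overlap of these groups, in either direction. The log2 difference, males minus females, was -1.34 ± 0.22 (SE), a level 2.54-fold higher in females, with a limma adjusted p of 3.57e-05. On the 4 slides that held a control of each sex it was -1.21, -1.03, -1.64 and -0.86. Without the slide block it was -1.47 with an adjusted p of 0.0635, not a call, and without both the block and the dim array it was -1.47 with 0.0399, a call. It held in each of the 10 fits that left out 1 control, from -1.45 to -1.23.

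The same difference was read in treated rats, which are other animals. Slc4a1 was called lower in males at 0.03, 0.12, 0.5 and 2 mg/kg, with log2 differences of -1.26, -0.86, -1.09 and -1.54 and limma adjusted p values of 0.000384, 0.0145, 0.0015 and 7.07e-06. The shares of all probes called were 9.52%, 3.59%, 3.65% and 5.67%. Without the dim array the value at 0.03 mg/kg was -0.93, still called. Without the slide block it was called at none of the doses, with adjusted p values from 0.167 to 0.718, while 2.93%, 1.93%, 2.29% and 2.15% of all probes were. At 2 mg/kg the females ranged from 1.31 to 3.50 and the males from 0.51 to 2.00, so raw values overlapped.

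Alas2 showed no such difference. Between controls it was 0.00 (95% interval -0.58 to 0.58), and over the treated groups it ranged from -0.61 to 0.17 with 0 calls. Alas1 differed by -0.05 in controls and by 1.16 at 0.12 mg/kg, where the adjusted p was 0.137, or 0.036 and a difference of 1.03 without the dim array, a call, as for 4.31% of all probes. Fech was higher in male controls by 0.47 with an adjusted p of 0.081, and 4 of 5 control males lay above all control females. Ppox was called lower in males at 0.03 mg/kg only, at -0.70 with an adjusted p of 0.00573, and was not called without the dim array. Fech was called there without that array, at 0.64 with an adjusted p of 0.00171, as were 4.48% of all probes.

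**Figure D4:**
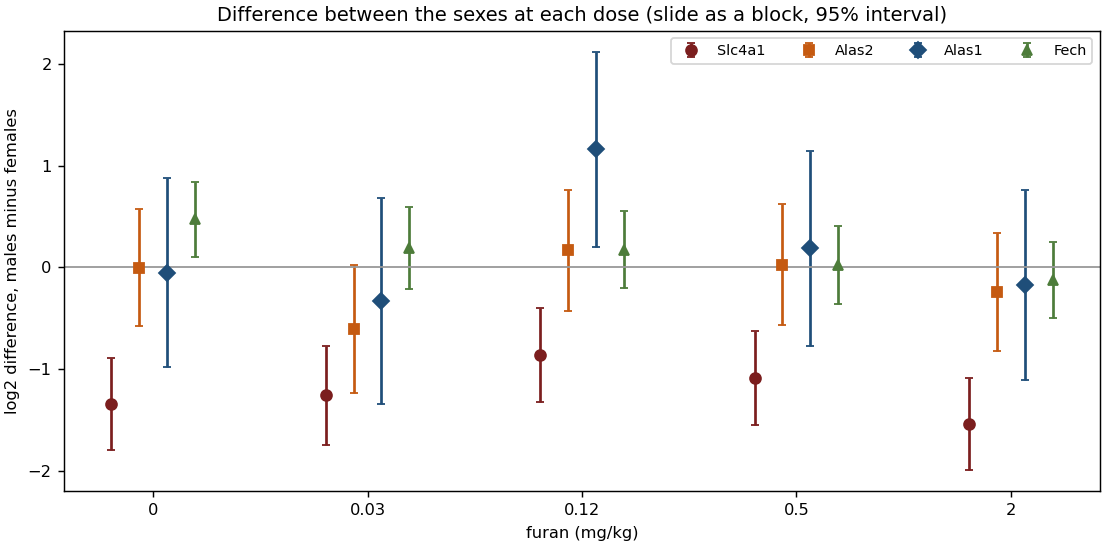
Log2 difference, males minus females, of Slc4a1, Alas2, Alas1 and Fech (vertical axis) in controls and at each dose (horizontal axis). Bars are 95% intervals from the fit with slide as a block and all 49 arrays. The intervals of Slc4a1 lie below 0 at every dose and those of Alas2 include 0 at every dose.

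Alas1 and Alas2 were then set side by side across single rats. After the group and slide means were removed, their deviations on 48 arrays had a Pearson r of -0.05 (permutation p = 0.757, adjusted over 2 pairs 0.757) and a Spearman rho of -0.04 (permutation p = 0.765, adjusted 0.765). Leaving out the 2 arrays farthest from the median of Alas1 gave an r of -0.05. Within slides of at least 6 arrays, r of the raw values ranged from -0.60 to 0.47. With the dim array, low for both genes, r was 0.33.

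The deviations of Alas2 and Slc4a1 ran together. Pearson r was 0.48 (permutation p = 0.00048, adjusted 0.00096) and Spearman rho 0.43 (permutation p = 0.00292, adjusted 0.00584). The shuffles made no allowance for the group and slide means removed before, so these p values may be too small. Leaving out the 2 arrays farthest from the median of Alas2 gave an r of 0.37. It was 0.66 over 23 males and 0.16 over 25 females, a difference that was not tested, and within slides it ranged from -0.10 to 0.75. The r of this pair was not the highest among the genes followed. Slc4a1 had a higher r with Alad, 0.61, and with Urod, 0.49, and Alas2 with Urod, 0.51. With Alas1, Cpox, Ppox and Fech the r of Slc4a1 was lower, from 0.07 to 0.42. With Alas1, Alad, Cpox, Ppox and Fech that of Alas2 was lower, from -0.05 to 0.36. Whether the shared deviations of Alas2 and Slc4a1 came from red cells was not tested. In bulk liver RNA fewer red cells and less RNA per red cell also cannot be told apart.

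**Figure D5:**
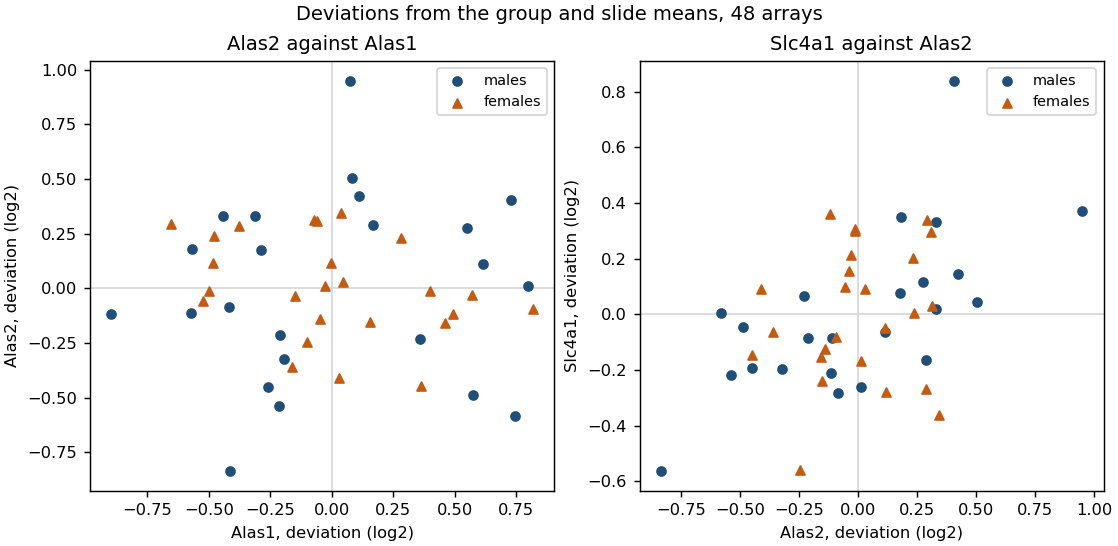
Deviations from the fitted group and slide means, on the log2 scale, of Alas2 against Alas1 and of Slc4a1 against Alas2, for 23 males and 25 females. The first pair forms a cloud without direction (r of -0.05) and the second slopes upward (r of 0.48).

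The genes whose probes deviated most like those of each gene were then listed, over 11384 named probes and 48 arrays, as a description. For Alas2 the 5 most alike were all globins, Hbb-b1, Hbe2, Hbb-bs, Hba-a1 and Hbb, with r from 0.87 to 0.94. These globin genes are near copies, and their probes may share transcripts. For Slc4a1 they were Calr3, a chaperone of the endoplasmic reticulum, Igbp1, Atp2b2, a calcium pump, Clec2g and Smpd3, a sphingomyelinase, with r from 0.69 to 0.76. None of these 5 belongs to the red cell list, and with the globins Hba-a1, Hbb, Hbb-b1, Hbb-bs and Hbe2 of that list Slc4a1 had an r of only 0.17 to 0.30, beside 0.70 to 0.94 for Alas2. Hbz, a globin well above background on only 28 of the 48 arrays, had -0.24 with Slc4a1 and -0.05 with Alas2. Over the whole list r ran from -0.24 to 0.41, with Bpgm, for Slc4a1, and from -0.09, with Gypc, to 0.94 for Alas2. For Alas1 they were Tsc22d3, a target of glucocorticoids, Errfi1, an inhibitor of the EGF receptor, Nfkbia, which holds back NF-kB, Tob2 and Cebpb, a transcription factor of the acute phase, with r from 0.69 to 0.74.

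The other red cell genes were read beside Alas2 and Slc4a1. Of 39 genes listed, 29 were on the array and 17 passed the filter, and the globins Hba-a1, Hbb, Hbb-b1, Hbb-bs and Hbe2 were well above background on all 48 arrays. At 2 mg/kg 14 of the 17 were below 0 in males, with a median log2 difference of -0.21 beside -0.02 for all probes. In females 12 were below 0, with a median of -0.11 beside 0.01. The only call was Car2, a carbonic anhydrase of red cells and of several other tissues, which rose by 1.22 in males (limma adjusted p = 0.000171). Over all probes 3.8% were called in males and 0.655% in females. Hbb-b1, Hbb and Hba-a1 differed by -0.81, -0.78 and -0.57 in males and by -0.26, -0.13 and -0.08 in females, none called. Without the dim array Hbb-b1, Hbb and Hbe2 were called in males. The mean ratio of the 17 genes ranged from 0.86 to 1.72 in control males and from 0.83 to 1.28 at 2 mg/kg, and from 1.08 to 1.25 and 0.80 to 1.07 in females. The part of red cell content in the values of Slc4a1 and Alas2 was not tested.

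Between control sexes the red cell list ran the other way from Slc4a1. Of the 17 genes 13 were higher in males, with a median of 0.17 beside 0.02 for all probes, and the globins Hba-a1, Hbb, Hbb-b1, Hbb-bs and Hbe2 were higher in males by 0.36 to 0.48, none called. Car1 was called higher in males by 0.97 (adjusted p from limma of 0.0167) and Car2 higher in females, at -1.46 (1.24e-06). Without the slide block Car2 was still called and Car1 was not, with an adjusted p of 0.355. Erythroid transcription factors, 6 of which were tested, had 0 calls in either sex or between them. Platelet genes fell in males at 2 mg/kg in 2 of 4 cases, Gp1bb by 0.83 and Pf4 by 0.80 on the log2 scale, with adjusted p values of 0.00445 and 0.0121, and neither was called without the slide block. In that comparison 3.8% of all probes were called with the block and 2.21% without it. Lists of neutrophil, Kupffer cell, lymphocyte, endothelial and hepatocyte markers had 0 calls at 2 mg/kg with all arrays. Without the dim array 1 hepatocyte marker was called lower in males. In males all 9 hepatocyte markers were below 0, with a median log2 difference of -0.42 beside -0.02 for all probes, and 9 of 11 Kupffer cell markers, with a median of -0.27. In females the hepatocyte median was 0.01, or -1.03 without the slide block, where that of males was -0.84. The part of these markers in the values of Slc4a1 and Alas2 was not tested. Between control sexes, Camp and S100a9 of neutrophils, Adgre1 of macrophages and Fcgr2b and Lyve1 of endothelial cells were called higher in females, by log2 differences of -0.59 to -0.96, and Ttr of hepatocytes higher in males, by 0.66. Without the slide block Camp was still called and S100a9, Adgre1, Fcgr2b, Lyve1 and Ttr were not. Whether cell makeup had a part in the sex difference of Slc4a1 was not tested.

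In the rest of the heme pathway no gene was called. Of 12 further genes for steps and carriers, 0 were called in males or females at 2 mg/kg, and their medians were -0.02 and 0.21 beside -0.02 and 0.01 for all probes. In females 11 of the 12 were above 0, and in males 5, but without the slide block the median was -0.04 in females and -0.10 in males. Past the adjusted p limit but under 1.5-fold were Slc25a39, a mitochondrial carrier, at 0.34 in males and 0.40 in females, and Abcb10, a transporter of the inner mitochondrial membrane, at -0.45 and -0.31. Lonp1, a mitochondrial protease, was past it in females, at 0.34. They are named after their values were seen. Tspo, a protein of the outer mitochondrial membrane, differed by 0.80 in males and was called only without the dim array.

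Of 7 tested regulators of Alas1, 1 was called in males at 2 mg/kg, where 3.8% of all probes were called. Npas2, a partner of BMAL1 in the circadian clock, fell by 0.72 on the log2 scale in males at 2 mg/kg (limma adjusted p = 0.00389), and differed by -0.02 in females. The call was lost without the slide block, at -1.07 with an adjusted p of 0.0671. The nuclear receptors Nr1i2 and Nr1i3, which relay drug signals to the Alas1 gene, differed by -0.04 and 0.01 in males and 0.33 and 0.18 in females. Nrf1, the factor whose letters were searched above, differed by 0.02 and -0.19.

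Genes that use or store heme and iron comprised 14 heme enzymes, 19 iron genes and 11 of heme breakdown, binding and export. Of them 3 were called in males and 0 in females at 2 mg/kg, beside 3.8% and 0.655% of all probes. Por, the reductase that feeds electrons to cytochromes P450, rose by 0.70 (limma adjusted p = 0.00183), and Cyp2c7, a P450, fell by 0.62 (adjusted p = 0.0131). Of 14 heme enzymes of the hepatocyte 13 were below 0 in males, with a median of -0.51, against 5 of 14 and 0.06 in females, beside -0.02 and 0.01 for all probes. Without the slide block the medians were -0.80 and -0.69. The hepatocyte markers above lay below 0 with them in males. By the fit without the slide block Por, Cyp2c7 and Ftl1 were not called. Without the dim array 1 of the 14 heme enzymes was called higher in males and 4 lower. Among those lower were Cyp3a2 at -1.28 and Cyp4a1 at -0.75, with limma adjusted p values of 0.00358 and 0.000666. Ftl1, a subunit of the iron store ferritin, rose by 0.89 in males (adjusted p = 0.00167), the only call among 19 iron genes with all arrays. Without the dim array 1 iron gene was called higher in males and 1 lower. Heme breakdown, binding and export genes had 0 calls of 11 in either sex. In males 8 of the 11 were below 0, with a median of -0.15, and in females 6, with a median of -0.02. Past the adjusted p limit but under 1.5-fold in males were Slc48a1, a heme transporter of the lysosome, and Hp, haptoglobin. Slc48a1 was at 0.57 (limma adjusted p = 0.00115) and Hp at -0.46 (0.00983). Both are named after their values were seen. Without the slide block Slc48a1 was called, at 0.68 with an adjusted p of 0.0409, and Hp was not, at -1.16 with 0.296. With all arrays no gene of any list was called for a difference of the furan effect between the sexes, or at a lower dose. For that difference 0.107% of all probes were called. Leaving out the dim array gave 1 call of a red cell gene for it, with the male effect above the female effect. It also gave 1 heme enzyme called higher than in controls in each of the male groups given 0.12 or 0.5 mg/kg. Between control sexes Cyp3a2 and Cyp2c11, P450s of the male rat, were higher in males by 9.61 and 6.87, and Hfe and Tfrc, which govern iron uptake, by 0.67 and 0.60. Without the slide block Hfe was not called, at 0.51 with a limma adjusted p of 0.489, while Cyp3a2, Cyp2c11 and Tfrc were. Slc40a1 of the iron genes and Cyp7a1 of the heme enzymes were called higher in females only without the dim array, at -0.64 and -1.57.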

How the data were processed

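Scanner files of 49 arrays were used. They hold the median pixel intensity of each spot and of its background in both channels, which the authors deposited from Agilent Feature Extraction 10.7.3.1 per the file headers. They also hold a log10 ratio that the software background subtracted and dye normalised, and marks of spot quality, likewise deposited by the authors. In the value table of the series the deposited numbers are log2 ratios, normalised by the authors. Of its 49 columns 46 matched an array of the same sex and dose, but only 7 that of their own label, so it was used by group only. Its column medians lay between -0.06 and -0.03. The array design was annotated on rn4, and gene symbols came from RefSeq accessions of GRCr8.

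Signals were corrected by normexp with an offset of 50 and normalised by loess within each array (limma 3.58.1, R 4.3.3, with the package data.table in version 1.17.8). Spots of a probe were averaged without those marked as outliers. Probes entered the tests where 4 or more arrays of some group had the liver channel well above background. The limma model had 1 mean per group of sex and dose and slide as a block. The study's methods name sex, treatment and their interaction without slide, and that fit is given as the one without the block. Adjusted p values are by Benjamini-Hochberg over all tested probes of a comparison, 2-sided, and a call needed 0.05 and 1.5-fold. Permutation p values of correlations used 100000 shuffles of the deviations, without allowance for the group and slide means removed from them. Each group's number of arrays limits the precision. The steps were tested on simulated data.

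The 8 genes and all lists were chosen with earlier results of these data known. Every one of the 8 genes is reported. From the lists of related genes, called genes are named, largest first and at most 5 a list and comparison, by their brightest probe. For Alas1, Alas2 and Slc4a1 the 5 genes with the highest Pearson r of deviations are named. Comparisons of the sexes in treated groups were added after the data were seen.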

Additional observations from a re-analysis of the deposited data

Results flagged for a closer look

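Values of 1 array stood apart from the other 4 of their group in 3 of 80 groups of gene, sex and dose, by Dixon's test of the gap to the nearest array, and chance flags about 1 in 20. All 3 were in Ppox, the gene whose spread changed least when slide was taken out. In males at 2 mg/kg animal 83, on slide 7, read 1.43 and the next array 1.04. In females at 0.5 mg/kg animal 70, on slide 1, read 1.60 and the next 1.44. In females at 2 mg/kg animal 82, on slide 8, read 1.10 and the next 1.46. Ppox was not called at these doses with all arrays.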

How the results depend on the processing

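The call of Slc4a1 in males at 2 mg/kg, 1 of the 8 genes, became 0 without the slide block, without both the block and the dim array, with array weights, with the scanner's own log ratio, with the authors' values and no block, a setting chosen after the data were seen, with median centring and with no filter on dim probes. It held with slide as a random block, without the dim array, with no background correction, for the liver channel alone and for gene means. The difference itself lay between -1.11 and -0.55 in these 12 settings. The sex difference of Slc4a1 in controls, a call in 9 of 12 settings and from -1.62 to -0.80, became 0 calls without the block, with the scanner's ratio and with the authors' values.

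The F test over all doses found 1 of the 8 genes in place of 0 in males without the dim array and in the liver channel alone, Slc4a1 both times, and 1 in females with array weights, Fech. Fits that left out 1 array gave 0 to 1 calls in males at 2 mg/kg, 0 to 2 in males at lower doses and 0 to 2 for any dose in males. The calls at 0.03 mg/kg arose when male 22 (Cpox, Alas2), 25 (Cpox) or 27 (Cpox, Ppox) was left out, which leaves the dim array among 3. The other counts stayed at their value, 1 between control sexes and 0 elsewhere.

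Alas1, not called, changed sign where its value was small. In males at 2 mg/kg it was -0.029 without the block, with or without the dim array, and in females -0.29 in both and -0.10 with the authors' values. Between control sexes it was 0.072 with array weights, and -0.26 to 0.13 over single arrays left out. Its difference in furan effect between the sexes was 0.26 without the block, with or without the dim array, 0.10 without the dim array alone, 0.13 with the authors' values and 0.15 with median centring, and -0.30 to 0.084 over single arrays left out. Alas2 between control sexes was 0.33 with the scanner's ratio, 0.28 in the liver channel alone and 0.026 without background correction, and -0.27 to 0.19 over single arrays left out. Its difference in effect was 0.28 without the block, with or without the dim array, 0.033 with array weights and 0.59 with the authors' values, and -0.43 to 0.073 over single arrays left out. That of Slc4a1 was 0.22, 0.22, 0.65 and, with median centring, 0.045. The correlation of Alas1 with Alas2 was 0.33 with the dim array and 0.092 in males. The causes were not tested.

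No paired analysis was possible because the animal numbers shared by males and females name different rats. The authors' values with slide as a block could not be fitted, since their columns cannot be tied to a slide. Slides 5 and 6 hold no controls, so there the block rests on the treated groups of other slides. Each dose group holds 4 or 5 rats, and the intervals above are what that number allows.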
